A study of Arabidopsis thaliana with 15 samples.

Results

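ELIP1 and ELIP2 encode the early light-induced proteins of Arabidopsis thaliana. They were followed here through 2 probe sets, 258321_at for ELIP1 (AT3G22840) and 245306_at for ELIP2 (AT4G14690), out of 22746 probe sets tested. Both were chosen by their measured values. Earlier results of these data had shown them as the 2 probe sets whose UV-B response was most reduced in the uvr8-1 mutant, so values of that contrast and of its parts are given below as a description, with no test. The gene names rest on general knowledge of this array, because the annotation used here pairs neither probe set with a gene and pairs no other probe set with either locus. No sequence of either gene was used here. Cross-hybridisation between the probe sets of these related genes was not tested.

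The values come from leaves of the accession Landsberg erecta, hybridised to 15 Affymetrix ATH1 arrays of 1 colour, which carry sets of short probes against transcripts. All plants spent 3 weeks in compost at 21 °C, with constant white illumination at 25 µmol m-2 s-1. Wildtype and uvr8-1 were each sampled in this white light and after UV-B, and hy5-1 was sampled after UV-B, with 3 arrays per group that the design text calls biological replicates. The UV-B treatment lasted 4 h at a fluence rate of 3 µmol m-2 s-1. Each mutant is represented by 1 allele, and hy5-1 in white light was not analysed here, which leaves its own response to UV-B unknown. How many plants went into an array is not given in the sources used here. Whole leaves were used, so more RNA per cell and more expressing cells cannot be told apart. The leaf gene RCA, which encodes Rubisco activase, had group means between 12.2 and 12.5 in log2 units. The other measured leaf markers, PRK and SBPASE of the Calvin cycle, were bright in every group, with means between 11.1 and 11.8 and between 10.4 and 11.1, but differed between groups. After UV-B they were lower by -0.41 and -0.46 in wildtype, calls that ended in 11 and 9 of 15 fits without 1 array, and by -0.66 and -0.74 in uvr8-1. SBPASE was higher in hy5-1 than in uvr8-1 by 0.68 (limma, adjusted p = 0.0169). The part of these shifts in the results was not tested. The root marker EXPA7 had group means between 3.24 and 3.57, below 3.70, the value under which 40% of all measurements lay. The other measured root marker, PYK10, was not dim, with group means between 6.88 and 8.17.

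Early light-induced proteins are encoded in the nucleus and inserted into the thylakoid membranes of chloroplasts. They belong to the superfamily of light-harvesting chlorophyll-binding proteins, appear for a short time during greening and light stress, and are held to protect against free chlorophyll and excess excitation. In UV-B signalling the photoreceptor UVR8 absorbs UV-B and binds the regulator COP1, after which the bZIP transcription factor HY5 and its homologue HYH promote the transcription of many light-responsive genes.

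In wildtype, both probe sets went from below the middle of the array to among the brightest. On the white light arrays of wildtype, ELIP1 had log2 values of 3.94, 3.51 and 3.68 in replicates 1, 2 and 3. Under UV-B it had 10.49, 11.39 and 10.90. ELIP2 had 4.2, 4.13 and 4.28 in white light and 11.76, 11.83 and 11.07 under UV-B. For both genes every UV-B array lay above every white light array, as was the case for 16.2% of all probe sets. The means of ELIP1 were 3.71 ± 0.22 and 10.93 ± 0.45 (SD, n = 3), and those of ELIP2 were 4.2 ± 0.07 and 11.55 ± 0.42. The difference was 7.22 ± 0.23 for ELIP1 and 7.35 ± 0.24 for ELIP2 (log2 difference ± standard error), or 149-fold and 163-fold. Among all probe sets these rises ranked 4 and 3. Within an array, ELIP1 moved from between the 37.3 and 43.8 percentile of all probe sets to between the 98.9 and 99.7 percentile, and ELIP2 from between 46.8 and 48.9 to between 99.5 and 99.8. Of the 3 white light values of ELIP1, 2 lay under the limit of 3.70 below which the dimmest 40% of measurements fall, so the size of its rise depends on values near background. No ELIP2 value lay under it, but its white light values were also in the lower part of the array. The size of its rise may depend on background too.

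**Figure D1:**
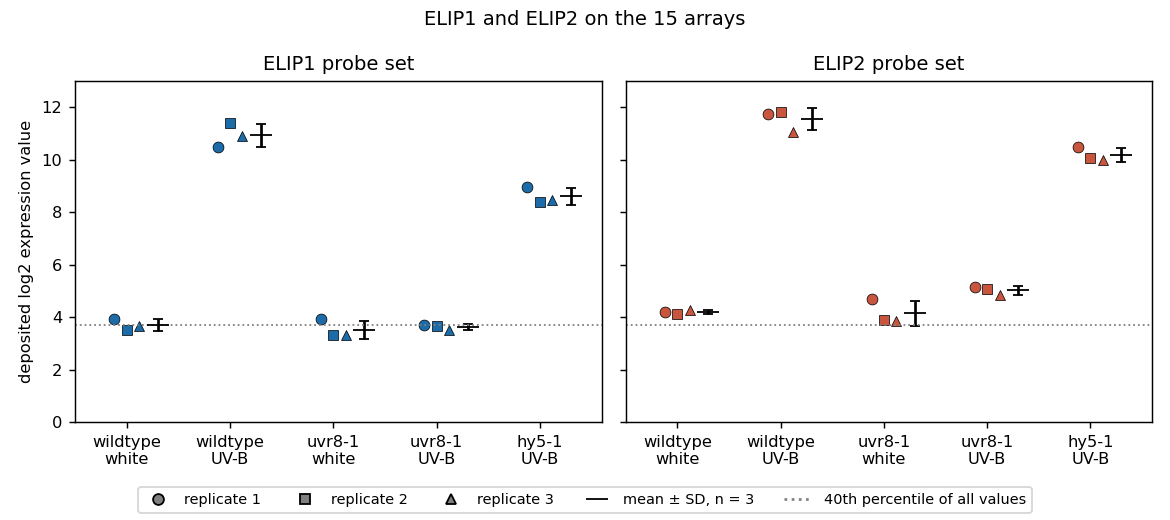
Deposited log2 expression values (y axis) of the ELIP1 and ELIP2 probe sets in the 5 groups (x axis). Symbols are single arrays by replicate number, black marks are means ± SD of 3 arrays, and the dotted line at 3.70 is the 40th percentile of all values. Wildtype and hy5-1 under UV-B stand far above the other groups, with wildtype higher than hy5-1.

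In uvr8-1, which lacks the working photoreceptor, ELIP1 was dim in both conditions. Its values were 3.92, 3.33 and 3.33 in white light and 3.72, 3.67 and 3.52 under UV-B, and the groups overlapped. The difference was 0.11 ± 0.23, with a 95% confidence interval from -0.39 to 0.61. Within equal replicate numbers, which were taken to pair the wildtype and uvr8-1 arrays, it was -0.20, 0.34 and 0.18.

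ELIP2 differed from this pattern by a small amount. In uvr8-1 it had 4.69, 3.89 and 3.85 in white light and 5.14, 5.08 and 4.84 under UV-B. The lowest UV-B array was above the highest white light array, a separation that 16.6% of all probe sets had in this direction. The difference was 0.88 ± 0.24 (1.84-fold), with a 95% confidence interval from 0.37 to 1.39. Within equal replicate numbers it was 0.45, 1.19 and 0.99. This change ranked 1867 among all probe sets in uvr8-1, against rank 3 in wildtype.

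Compared directly under UV-B, uvr8-1 held 0.64% of the wildtype intensity of ELIP1 and 1.08% of that of ELIP2, after conversion of the log2 means to a linear scale. The share for ELIP1 rests on uvr8-1 values near background. The log2 differences were -7.29 ± 0.23 and -6.53 ± 0.24. For both genes all uvr8-1 arrays lay below all wildtype arrays, as for 7.10% of all probe sets. In white light the genotypes overlapped for both genes. The difference of uvr8-1 from wildtype there was -0.18 ± 0.23 for ELIP1 and -0.06 ± 0.24 for ELIP2, with 95% confidence intervals from -0.68 to 0.32 and from -0.57 to 0.45.

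The hy5-1 arrays were in none of the contrasts by which the probe sets are known to have been chosen. Under UV-B, hy5-1 held both transcripts at levels between those of wildtype and uvr8-1. ELIP1 had values of 8.97, 8.37 and 8.46, with a mean of 8.60 ± 0.32 (SD, n = 3). ELIP2 had values of 10.49, 10.06 and 9.97, with a mean of 10.18 ± 0.28. Every hy5-1 array lay below every wildtype UV-B array and above every uvr8-1 UV-B array for both genes. Of all probe sets, 13.2% were separated in this way below wildtype and 17.1% above uvr8-1.

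Both genes were lower in hy5-1 than in wildtype under UV-B. ELIP1 was lower by a log2 difference of -2.32 ± 0.23, or 5.0-fold (limma, adjusted p = 0.000246). ELIP2 was lower by -1.38 ± 0.24, or 2.59-fold (limma, adjusted p = 0.0054). Of all probe sets 4.81% were called lower in this comparison, a call being an adjusted p under 0.05 after Benjamini-Hochberg adjustment over all probe sets. Among all differences from wildtype, that of ELIP1 ranked 16 from the lowest and that of ELIP2 ranked 156. The wildtype UV-B arrays also entered the choice of the probe sets, and whether the hy5-1 values were in view at that choice is not known, so the adjusted p-values are not independent of it.

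Both genes were higher in hy5-1 than in uvr8-1 under UV-B. The log2 difference was 4.97 ± 0.23 for ELIP1 and 5.15 ± 0.24 for ELIP2, or 31.3-fold and 35.6-fold. The limma adjusted p was 1.56e-07 for both, against 5.37% of all probe sets called higher. ELIP2 ranked 1 and ELIP1 ranked 2 among all 22746 differences. The uvr8-1 arrays entered the choice, so these adjusted p-values are not independent of it either. The choice took the probe sets whose UV-B response was most reduced in uvr8-1. This favours high ranks for any level kept in hy5-1, so the ranks are a description and not a test. ELIP1 lay near background in uvr8-1, with 2 of 3 arrays under 3.70, so its fold and rank depend on that background. On the log2 scale, hy5-1 held 68.1% of the distance between uvr8-1 and wildtype for ELIP1, where the lower end is near background, and 78.9% for ELIP2. On a linear scale it held 20.0% of the wildtype intensity of ELIP1 and 38.5% of that of ELIP2.

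An index of the control probe sets was highest on the hy5-1 arrays. The index of 3' minus 5' signal, a mean over the GAPDH, actin and ubiquitin controls that measures how evenly transcripts are represented, lay between 2.43 and 3.04 on the hy5-1 arrays. It lay between 1.77 and 1.97 in wildtype under UV-B and between 1.92 and 1.95 in uvr8-1 under UV-B. With this index as a covariate the hy5-1 to wildtype differences were -3.03 for ELIP1 and -2.06 for ELIP2, and neither was called (limma, adjusted p = 0.327 and 0.719). The hy5-1 to uvr8-1 differences became 4.3 and 4.51 and were still called (limma, adjusted p = 0.0107 for both). The part of this index in the results was not tested beyond these fits. The hy5-1 arrays also did not share the correlation by replicate number that the wildtype and uvr8-1 arrays had. The sample titles do not say whether the hy5-1 arrays were prepared apart. In both hy5-1 comparisons, genotype and array set therefore cannot be told apart.

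**Figure D2:**
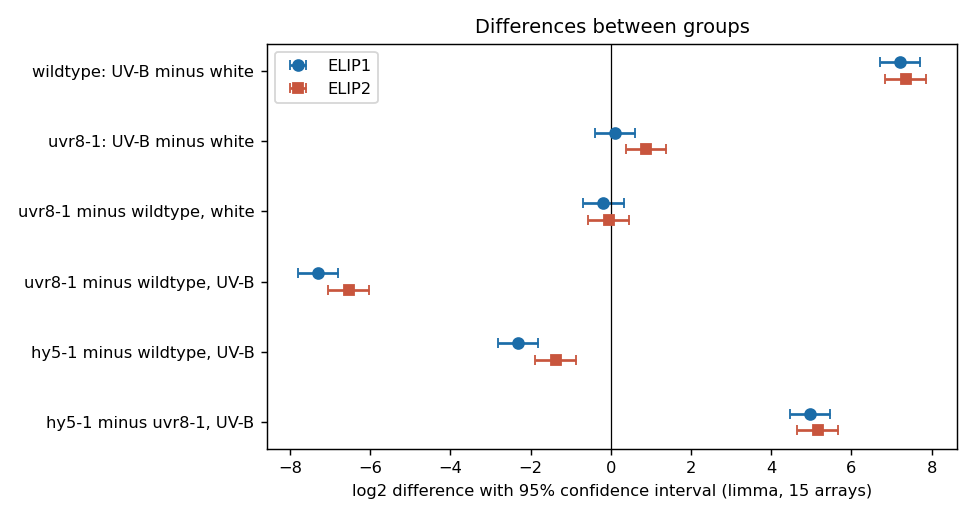
Log2 differences (x axis) with 95% confidence intervals from the limma fit to 15 arrays, for 6 comparisons (y axis) of ELIP1 (circles) and ELIP2 (squares). In hy5-1 both genes are below wildtype, at -2.32 and -1.38, and above uvr8-1, at 4.97 and 5.15.

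**Figure D3:**
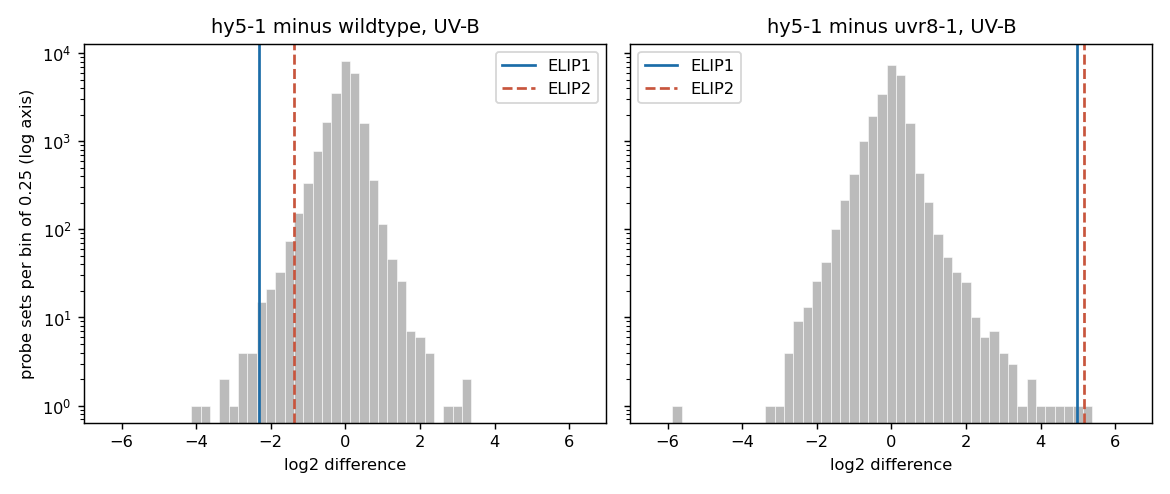
Number of probe sets (y axis, log scale) by log2 difference (x axis, bins of 0.25) for hy5-1 minus wildtype and hy5-1 minus uvr8-1 under UV-B. Vertical lines mark ELIP1 (solid) and ELIP2 (dashed), which lie in the lower tail on the left and at the upper end on the right.

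The order of the levels was thus the same at the top for both genes, with wildtype under UV-B above hy5-1 under UV-B. For ELIP1 the remaining 3 groups overlapped one another and do not differ beyond their spread. For ELIP2, uvr8-1 under UV-B came next, apart from both white light groups, which overlapped. The array with the highest ELIP1 value of its group was also the one with the highest ELIP2 value in 4 of 5 groups, and the lowest arrays coincided in 2.

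Whether the genes changed by unequal amounts was read from the difference of ELIP1 minus ELIP2 within each array, which compares changes and not the levels of the probe sets. In white light this difference was -0.25, -0.62 and -0.60 in wildtype and -0.77, -0.57 and -0.52 in uvr8-1. Under UV-B it was -1.27, -0.44 and -0.17 in wildtype, -1.42, -1.42 and -1.32 in uvr8-1 and -1.52, -1.69 and -1.51 in hy5-1. The arrays of both mutants under UV-B thus lay below all others, while wildtype replicate 1 under UV-B lay close to them and apart from the other wildtype arrays.

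From wildtype to hy5-1 under UV-B the within-array difference changed by -0.95, with ELIP1 lower by more than ELIP2, and the groups did not overlap (exact permutation test, two-sided, p = 0.1, and 0.15 adjusted over 6 comparisons). Between uvr8-1 and hy5-1 under UV-B the change was -0.19, again without overlap and with the same exact permutation p. ELIP1 lay near background in uvr8-1 under UV-B, so the size and sign of this -0.19 depend on that background. With 3 arrays against 3 no smaller p than 0.1 can be reached, so neither difference can pass 0.05. The other comparisons use only the arrays by which the probe sets were chosen. Their exact p-values entered the adjustment over 6 comparisons but are not read as tests, so only their values are described. The change was -0.76 from wildtype to uvr8-1 under UV-B and -0.77 for the UV-B response of uvr8-1, where ELIP1 lay near background. It was -0.13 both for the wildtype response and for uvr8-1 against wildtype in white light, where the groups overlapped. Without wildtype UV-B replicate 1 the change of the wildtype response was 0.19 in place of -0.13.

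**Figure D4:**
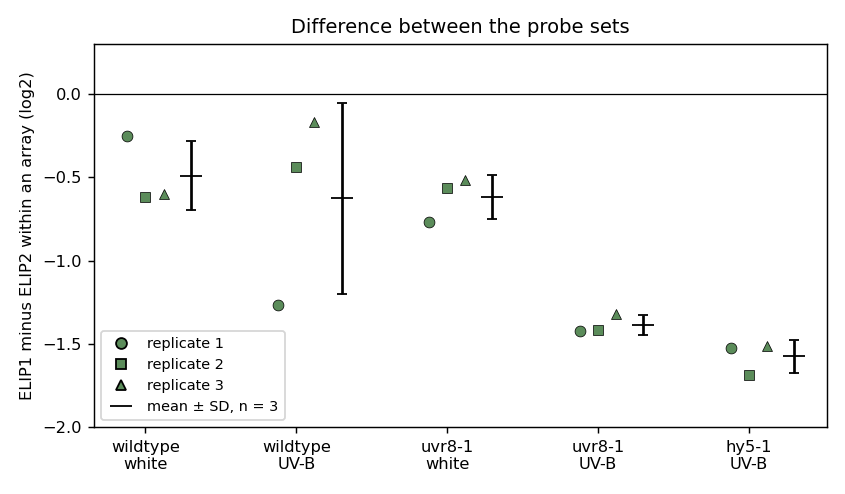
Difference of the log2 values of ELIP1 minus ELIP2 within each array (y axis) in the 5 groups (x axis). Symbols are arrays by replicate number and black marks are means ± SD of 3 arrays. The uvr8-1 and hy5-1 arrays under UV-B lie between -1.69 and -1.32, below all other arrays.

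The profiles of the genes over the 15 arrays were compared with those of the 1196 probe sets whose values had a standard deviation of at least 1 in log2 units. Pearson's r between ELIP1 and ELIP2 was 0.988. For ELIP1, 2 probe sets without a paired gene came first, 249063_at (r = 0.996) and 251020_at (r = 0.994). The first named genes were UGT78D2, a flavonol glucosyltransferase (r = 0.983), AT3G57020 (r = 0.975) and SDH2-1, the iron-sulphur subunit of mitochondrial succinate dehydrogenase (r = 0.969). AT1G73650 (r = 0.969), AT3G52740 (r = 0.956), whose product inhibits cryptochrome photoreceptors, and AT5G04830 (r = 0.951) followed. For ELIP2, the first were ELIP1, 251020_at and 253496_at (both r = 0.984). SDH2-1 (r = 0.983), AT1G73650 (r = 0.981), AT3G17800 (r = 0.976), AT5G04830 (r = 0.973), AT3G57020 and AT5G19850 (both r = 0.962) were the first named genes. The 15 points of each profile are 5 groups of 3 arrays, so these coefficients describe mainly how the group means are placed.

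These similar profiles differed in where uvr8-1 and hy5-1 stood. UGT78D2, listed for ELIP1 alone, had a uvr8-1 response of -0.46 ± 0.23, and AT3G57020, listed for both, had -0.21. Of those listed for ELIP2 alone, 253496_at had -0.06, AT5G19850 had 0.79 and AT3G17800 had 0.80, beside 0.88 for ELIP2. SDH2-1 had 0.63 and AT5G04830 had 0.86, both listed for both genes. In hy5-1 against wildtype under UV-B, 249063_at had a log2 difference of -1.51, 251020_at -1.29, UGT78D2 -0.91, 253496_at -0.59 and AT3G17800 -0.06. ELIP1, at -2.32, was further below wildtype than any of the 11 similar probe sets, and ELIP2, at -1.38, was further below than all but AT3G52740 (-1.41) and 249063_at. The wildtype UV-B rises of the 11 were smaller, from 2.55 to 5.33, beside 7.22 for ELIP1 and 7.35 for ELIP2. The gaps were not scaled to these rises, so larger gaps do not by themselves set the ELIP genes apart. The same arrays enter all of these values, and these differences between genes were not tested.

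**Figure D5:**
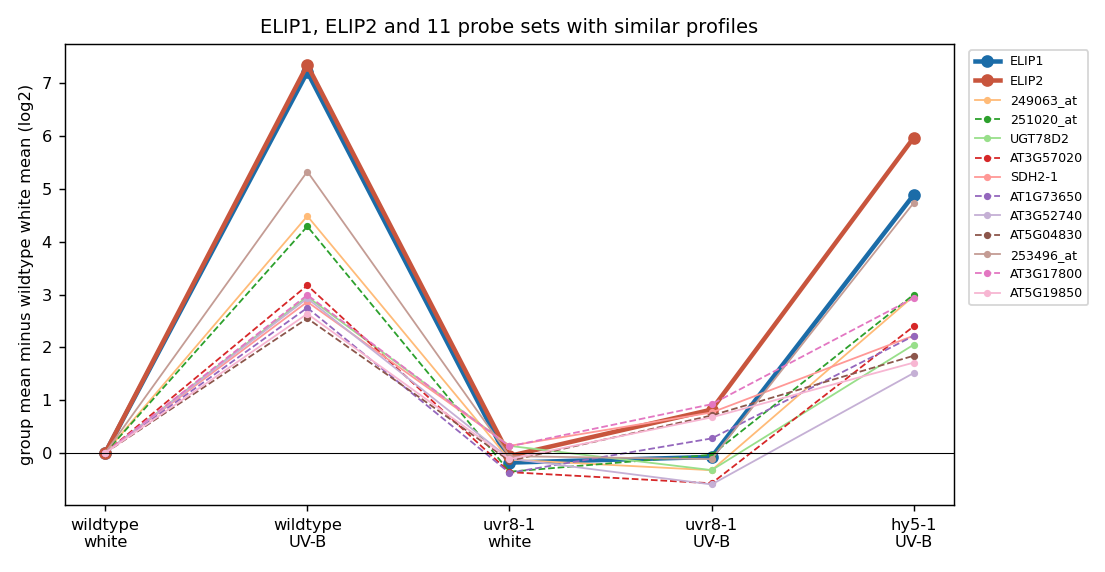
Group mean minus the mean of wildtype in white light (y axis, log2) in the 5 groups (x axis) for ELIP1, ELIP2 and 11 probe sets with similar profiles (for each gene, the 6 closest named genes and 2 closest unpaired probe sets). Lines join the groups for reading only. In all of them wildtype under UV-B is highest, and ELIP1 and ELIP2 have the largest rises, at 7.22 and 7.35.

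Other genes for chlorophyll-binding proteins and their pigments were mostly lower after UV-B. Of 68 genes in 4 lists (light-harvesting-like proteins, antenna proteins, chlorophyll synthesis and breakdown, carotenoid pathway), 12 were paired by the annotation with a probe set of their own, and neither ELIP gene is among these. In wildtype 8 of the 12 fell under UV-B and none rose, against 18.3% of all probe sets called lower. Their median log2 difference was -0.63, beside -0.04 over all probe sets. In uvr8-1, 9 fell and none rose, against 19.0% of all probe sets, with a median of -0.86 beside -0.03.

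Among the relatives of the ELIPs, LIL3:1 and LIL3:2, light-harvesting-like proteins that hold geranylgeranyl reductase at the thylakoid, fell in wildtype by -0.69 ± 0.17 and -0.71 ± 0.09 (limma, adjusted p = 0.00618 and 6.82e-05). They also fell in uvr8-1, by -0.86 ± 0.17 and -0.51 ± 0.09. The photosystem II antenna gene LHCB4.2 fell by -2.34 ± 0.29 in wildtype and -1.48 ± 0.29 in uvr8-1. LHCB4.1 fell by -0.34 ± 0.10 and -0.48 ± 0.10. Its wildtype call was lost with quantile normalisation and in 1 of 15 fits without 1 array. The third measured antenna gene, LHCB4.3, had 0.41 in wildtype and -0.22 in uvr8-1 and did not pass. Among chlorophyll genes, PORB, which reduces protochlorophyllide in the light, fell by -1.72 ± 0.17 and -1.44 ± 0.17. CHLI2, a subunit of magnesium chelatase, fell by -1.19 ± 0.17 and -1.34 ± 0.17. AT1G74470, the geranylgeranyl reductase itself, and NOL, a chlorophyll b reductase, fell by -0.57 and -0.70 in wildtype and by -0.87 and -0.86 in uvr8-1. The wildtype call of AT1G74470 was lost in 1 of 15 fits without 1 array (limma, adjusted p = 0.051). GSA1 and HEMB1, enzymes of early tetrapyrrole synthesis, had -0.16 and 0.05 in wildtype and did not pass. LYC, the lycopene beta-cyclase of carotenoid synthesis, fell in uvr8-1 by -0.89 ± 0.14 but had -0.23 in wildtype, and the difference of these responses was not called (limma, adjusted p = 0.293).

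In each hy5-1 comparison 1 of these 12 genes was called. Of all probe sets, 4.81% were called lower in hy5-1 than in wildtype and 5.37% higher than in uvr8-1. Counts this small do not set the 12 genes apart from the array. Of the 12, only LHCB4.3 was called lower in hy5-1 than in wildtype (-1.01 ± 0.26, limma, adjusted p = 0.0327), and its call ended when replicate 1 or 3 of hy5-1 was left out (adjusted p = 0.123 and 0.0713) or replicate 2 or 3 of wildtype under UV-B (0.126 and 0.0712). Only LYC was called higher in hy5-1 than in uvr8-1 (0.65 ± 0.14, limma, adjusted p = 0.0106), and not with the index of 3' minus 5' signal as a covariate (adjusted p = 0.948). The median differences of the 12 were 0.01 and 0.09, beside 0.04 and 0.04 over all probe sets.

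Of 16 genes of light and UV-B signalling, 1 had a probe set of its own. This was HYH, the homologue of HY5, with mean log2 values of 3.57 in wildtype and 3.46 in uvr8-1 in white light. Under UV-B it reached 8.05 in wildtype, 7.45 in hy5-1 and 5.47 in uvr8-1. It rose in uvr8-1, by 2.01 ± 0.45 (limma, adjusted p = 0.00344). The difference of this response from that of wildtype was not called (limma, adjusted p = 0.1345). Under UV-B HYH was lower in uvr8-1 than in wildtype (-2.59 ± 0.45, limma, adjusted p = 0.00539). In hy5-1 it was not called lower than in wildtype (-0.61 ± 0.45, limma, adjusted p = 0.431). It was called higher there than in uvr8-1 (1.98 ± 0.45, limma, adjusted p = 0.0123), a call lost in 1 of 15 fits without 1 array. Both white light means lay below 3.70, so the sizes of the rises depend on values near background.

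The chromosomal neighbours of the ELIP genes were read from the order of genes in the RefSeq table of assembly TAIR10.1. Of the 3 protein-coding genes on each side of each ELIP gene, 3 near ELIP1 and 3 near ELIP2 had a probe set of their own. AT3G22845 and AT3G22850, the next genes after ELIP1, rose in wildtype by 1.16 ± 0.16 and 1.45 ± 0.19 (limma, adjusted p = 8.2e-05 and 6.61e-05), against 12.2% of all probe sets called higher. They rose in uvr8-1 as well, by 0.69 ± 0.16 and 1.31 ± 0.19 (limma, adjusted p = 0.00385 and 0.000147, against 12.9% of all probe sets). In hy5-1 against wildtype under UV-B they had -0.47 and -0.31 and did not pass. AT3G22810 near ELIP1 and CLPB2, APS3 and AT4G14695 near ELIP2 passed in neither response, with values between -0.28 and 0.66. The group means of AT3G22810 (3.24 to 3.54), CLPB2 (2.58 to 2.74) and AT4G14695 (2.64 to 2.76) all lay below 3.70. A lack of change at this dim level says little about these genes. None of the 6 neighbours was called in either hy5-1 comparison. Among all probe sets, 4.81% were called lower than wildtype and 5.37% higher than uvr8-1, so this lack of calls does not set the neighbours apart. Their hy5-1 minus uvr8-1 differences, those of the dim probe sets included, lay between -0.96 and 0.13. Those of ELIP1 and ELIP2 were 4.97 and 5.15.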

How the data were processed

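The deposited values are log2 expression values that the authors made with RMA, per the submitters' processing notes. RMA brings the probe intensities of the arrays to a common distribution and gives 1 value per probe set. The sources used here do not state its version or background step. Of 22810 probe sets, 64 controls were set aside and 22746 were tested with no filter on signal. Array medians lay between 4.31 and 4.40, values ran from 1.99 to 13.1, and no further normalisation was applied. The annotation pairs 13436 probe sets with 1 gene of the RefSeq table, 13286 genes in all. Where a gene had several, the probe set with the highest mean was used.

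Differences were fitted with limma 3.58.1 in R 4.3.3, with 1 mean per group over 15 arrays (10 residual and 3.09 prior degrees of freedom). Adjusted p-values are by Benjamini-Hochberg over all probe sets, 2-sided. For the ELIP genes, p-values are given only for comparisons with hy5-1. Exact permutation tests used scipy 1.17.1, tables pandas 2.3.3 and numpy 2.4.6 in Python 3.11.15, and plots matplotlib 3.10.9. The fit was checked on simulated data. The number of arrays limits the precision.

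The members and gene lists were chosen with earlier results of these data known. Genes were named as follows: the members, list genes with a probe set of their own (up to 6 per list), and per member the 6 genes and 2 unpaired probe sets with the highest Pearson r. Neighbouring genes were chosen by position. Of 128 genes in 9 lists 18 were measured, with 0 of 14 for plastid photoprotection and repair, 0 of 8 for seed and flower markers, 3 of 14 leaf markers and 2 of 8 root markers. The sample titles give replicate numbers but no pairing. Equal numbers were taken to pair the wildtype and uvr8-1 arrays because the correlation of their deviations from group means was over 0.1 for each number, from 0.104 to 0.684. It was not for hy5-1. The main fit does not use this pairing, and the replicate block does. Alternatives were a replicate block, median centring, quantile normalisation, removal of the dimmest 40% of probe sets, an intensity trend, robust moderation, a fit of the compared groups alone, array weights, a covariate for the 3' minus 5' index and leaving out each array. Promoter motifs were not analysed here.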

Additional observations from a re-analysis of the deposited data

How the results depend on the processing

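The hy5-1 differences of ELIP1 and ELIP2 kept their direction and their calls under all alternatives but 1. With a covariate for the 3' minus 5' index, hy5-1 minus wildtype was -3.03 for ELIP1 and -2.06 for ELIP2 and was no longer called; the index separates hy5-1 from the other groups. Without 1 array in turn, hy5-1 minus wildtype ranged from -2.54 to -2.09 for ELIP1 (highest adjusted p = 0.00282) and from -1.62 to -1.24 for ELIP2 (0.0312). Hy5-1 minus uvr8-1 ranged from 4.78 to 5.08 and from 5.0 to 5.26. With the replicate block the hy5-1 to wildtype differences were still called (limma, adjusted p = 0.000459 and 0.00167), although replicate numbers do not pair hy5-1 with the other groups. The differences themselves, -2.32 and -1.38, cannot change with this block. The same holds for removal of the dimmest probe sets, the intensity trend, robust moderation and the compared groups alone. It also holds when an array of another group is left out. Such fits can change only the call. The block changed no call of the ELIP genes. The described differences of wildtype and uvr8-1 moved by less than 1 SD of the replicates throughout. The within-array change of the wildtype response ranged from -0.36 to 0.19 without 1 array, turning positive without wildtype UV-B replicate 1; the cause was not tested. Of the 12 pigment and antenna genes, the 1 lower in hy5-1 than in wildtype became 0 with quantile normalisation, with the compared groups alone and with the index, and ranged from 0 to 1 without 1 array. The 1 higher in hy5-1 than in uvr8-1 became 0 with the index, and 1 was lower with array weights in place of 0. For the called single list and neighbour genes, 719 of 768 recomputed values kept their call, 49 lost it and 0 reversed. Many of these fits cannot change the difference, as said above, so no reversal was possible in them.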
